A study of Mus musculus with 6 samples.

Results

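The methionine cycle and transsulfuration genes described here are 10 genes, Mat1a, Mat2a, Gnmt, Bhmt, Bhmt2, Ahcy, Cbs, Cth, Nnmt and Pemt, chosen by symbol for their place in the pathway. All 10 were found among the 54232 Ensembl genes counted, and all 10 passed the filter on low counts. Liver RNA of chow-fed male C57BL/6 mice aged 8 to 10 weeks was sequenced in 6 libraries. The 3 libraries called SKO carry the genotype Fxr-/-Xbp1fl/fl, without FXR, the bile acid receptor encoded by Nr1h4, and with floxed but intact Xbp1. The 3 called DKO carry Fxr-/-Xbp1LKO and by this label also lack the transcription factor XBP1 in the liver. By their labels both groups thus lack FXR, a wild-type group was not analysed here, and every difference below is DKO relative to SKO. The sources used here do not name the driver of the liver deletion. Titles of 3 DKO libraries and 1 SKO library carry 2 numbers each, whose meaning is not given. The labels do not state that each library is a separate animal, and p-values therefore cover only the scatter among these 6 samples, some of which may be technical.

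Methionine is activated to S-adenosylmethionine (SAM), the methyl donor of most methylation reactions, by methionine adenosyltransferase. Each methylation leaves S-adenosylhomocysteine, which inhibits methyltransferases until it is split into adenosine and homocysteine. Homocysteine is then either remethylated to methionine or passed through transsulfuration to cysteine. Adult liver is the main site of this traffic, and it runs a liver form of methionine adenosyltransferase, a large capacity for methylation of glycine, and betaine-dependent remethylation.

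Total counts ranged from 16966422 to 21107674 per library, and no member had fewer than 1690 counts in any library, for which the 95% Poisson interval is 1610.4 to 1773 and covers counting error only. Xbp1 fell from 247 ± 18.9 to 77.1 ± 16.3 CPM (log2 fold change -1.68 ± 0.14 with adjusted p = 0.000146 in edgeR), and Nr1h4 transcript was counted in both groups, at 98.6 ± 5.94 and 97.4 ± 3.35 CPM. Counts over the whole Nr1h4 gene do not show whether a part of it is deleted, so they do not check the FXR label. The source of the Xbp1 counts left in DKO was not tested. CPM here are counts scaled to library size, and values after ± are SDs over 3 libraries for CPM and standard errors for log2 fold changes. DKO replicate 1 stood apart on the first principal component, at 35.2 against 14.5 and 20.3 in the other DKO libraries and -26.8 to -21.2 in SKO. Summed markers of stellate cells and fibroblasts were 367 to 431 CPM in SKO and 638 to 941 in DKO, with 7 of 10 markers called higher. Those of macrophages were 389.7 to 494 and 542 to 814 CPM (4 of 8 higher) and those of cholangiocytes 80.7 to 91.8 and 141 to 223 CPM (3 of 8 higher). Without its most abundant marker, Spp1, the cholangiocyte sum was 27.4 to 32.9 CPM in SKO and 30.2 to 48.2 CPM in DKO, with the groups overlapping. No endothelial marker of 7 and no lymphocyte marker of 6 was called, with sums of 397 to 430.5 against 377 to 409 CPM and 16.6 to 23.8 against 22.8 to 37.1 CPM. Without Ptprc, the most abundant lymphocyte marker, the lymphocyte sum was 3.07 to 4.39 CPM in SKO and 3.11 to 4.92 CPM in DKO. DKO replicate 1 was highest for stellate, macrophage, cholangiocyte and lymphocyte markers. Of 8 hepatocyte markers, 4 were called lower and none higher, with sums of 78983 to 106260.0 CPM in SKO and 50441 to 62906 CPM in DKO. None of these markers was at 0 in all libraries, and their part in the results below was not tested. In bulk tissue fewer cells of a type and less RNA per cell cannot be told apart.

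Most of the pathway was not called different between the groups. Of the 10 members, Nnmt was higher and Ahcy lower in DKO, and the other 8 were not called by edgeR at an adjusted p under 0.05. That is 20% of the members, where 20.0% of the 13986 genes tested were called (10.3% higher and 9.70% lower), so the share is the background share. The members' median log2 fold change was 0.03, against 0.006 over all genes tested. The groups did not overlap for 4 members, Mat1a, Cbs and Nnmt with all DKO libraries higher and Ahcy with all DKO libraries lower. Among all genes tested 39.6% did not overlap, 20.2% with DKO higher and 19.4% with DKO lower.

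**Figure D1:**
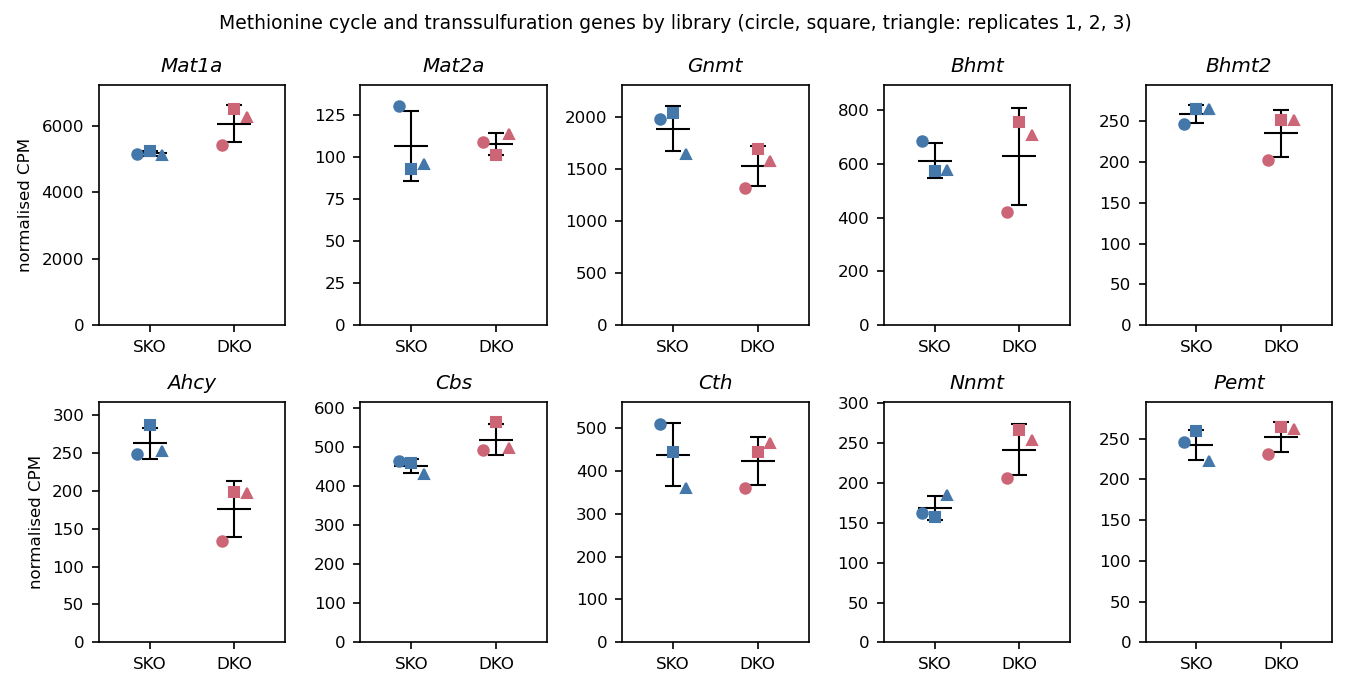
Normalised CPM (y axis, linear, from 0) of each of the 10 genes in the 3 SKO and 3 DKO libraries (x axis), with points for libraries and black bars for the mean and SD of 3. The DKO points of Ahcy lie below and those of Nnmt, Mat1a and Cbs above all SKO points, and DKO replicate 1, the circle, is the lowest DKO library in 9 of 10 panels.

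The sequences upstream of 3 members are shown because they carry short runs of letters that form parts of elements bound by XBP1. The full elements were not searched for. Windows of 250 bases before the start were taken from RefSeq (GRCm38.p6), in which 7 of the 10 members matched by symbol. Both strands were searched for CCAAT and CCACG, the outer parts of the ER stress response element, and for ACGTG, the core of the UPR element. CCACG was found for 4 of the 7, Mat2a, Gnmt, Bhmt2 and Ahcy, and ACGTG for Cbs alone. CCAAT was found for 6 of the 7, Mat2a, Gnmt, Bhmt, Ahcy, Cbs and Pemt. The letters found for Bhmt and Pemt lay before the RefSeq start but inside the gene as annotated by GENCODE. Among 32851 windows of this length, 28.3% held CCACG, 16.6% held ACGTG and 33.8% held CCAAT. These shares were not matched for base composition. GC content was 67.6% in Mat2a, 60.4% in Gnmt, 48.0% in Bhmt, 74.0% in Bhmt2, 52.8% in Ahcy and 68.0% in Cbs. It was 44.8% and 52.8% in the windows of Pemt, against a median of 52.4% over all windows. The 7 members had 8 windows, as Pemt had another without CCAAT, so members and windows are not counted alike. Ahcy is shown as the called gene with a window, Gnmt as the other gene whose 95% interval lay below 0, and Cbs for its ACGTG. Capitals mark the CCACG and ACGTG matches on either strand, 5′ to 3′ on the strand of the gene, and bases inside the GENCODE gene were left off. In Cbs the matches on the strands overlap in the palindrome CACGTG.
Ahcy, chr2:155074498-155074747, minus strand: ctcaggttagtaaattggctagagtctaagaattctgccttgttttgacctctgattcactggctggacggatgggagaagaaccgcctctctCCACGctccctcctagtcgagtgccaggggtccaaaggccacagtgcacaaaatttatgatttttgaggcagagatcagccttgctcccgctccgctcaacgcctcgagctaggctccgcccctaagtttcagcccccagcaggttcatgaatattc
Gnmt, chr17:46729169-46729415, minus strand: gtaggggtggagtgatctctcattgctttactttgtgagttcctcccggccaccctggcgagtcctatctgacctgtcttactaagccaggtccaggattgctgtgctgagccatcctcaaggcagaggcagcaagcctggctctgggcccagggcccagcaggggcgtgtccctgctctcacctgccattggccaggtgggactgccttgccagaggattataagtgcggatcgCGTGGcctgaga
Cbs, chr17:31637239-31637455, minus strand: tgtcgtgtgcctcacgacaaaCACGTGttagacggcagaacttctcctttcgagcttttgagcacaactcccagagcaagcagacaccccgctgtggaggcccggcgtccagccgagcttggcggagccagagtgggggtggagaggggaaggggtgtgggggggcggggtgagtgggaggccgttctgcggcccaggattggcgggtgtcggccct
The match lay from -157 to -153 in Ahcy and from -15 to -11 in Gnmt, counted from the RefSeq start. In Cbs the pair of matches lay between -229 and -224. The CCAAT letters, not in capitals here, lay from -237 to -233 in Ahcy and from -62 to -58 in Gnmt. In Cbs they lay from -52 to -48 and, among the bases left off, from -15 to -11. A match describes these letters only and is no sign of binding. Of the 4 members with CCACG, Ahcy was called lower, and Mat2a, Gnmt and Bhmt2 were not called.

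SAM synthesis depends on Mat1a, the catalytic subunit of adult hepatocytes, and Mat2a, the form of most other tissues and of fetal liver. Mat1a (ENSMUSG00000037798, chromosome 14, 41105035 to 41124412 in mm10, plus strand) was counted at 5151, 5239.7 and 5107 CPM in SKO replicates 1, 2 and 3 and 5422, 6503 and 6249 CPM in DKO replicates 1, 2 and 3. All DKO libraries were above all SKO libraries, yet the SKO libraries spread by only 1.31% of their mean and the DKO libraries by 9.33%. The change of Mat1a was 0.23 on the log2 scale (95% interval -0.04 to 0.50, edgeR adjusted p = 0.211), which was not called. It was called higher only when libraries were scaled by total counts (log2 0.45, edgeR adjusted p = 0.00873), a scaling under which the median of all genes moved from 0.006 to 0.226.

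Mat2a (ENSMUSG00000053907, chromosome 6, 72432799 to 72439558, minus strand) was counted at 130.1, 92.7 and 95.6 CPM in SKO replicates 1, 2 and 3 and 109, 101 and 114 CPM in DKO replicates 1, 2 and 3. The groups overlapped, with the highest and the lowest value both in SKO, and the log2 fold change was 0.02 (95% interval -0.26 to 0.31, edgeR adjusted p = 0.921). Its exons share 508 bases with Particl, annotated on the opposite strand, but Particl had at most 24 counts in any library. The ratio of Mat2a to Mat1a per kilobase of exon was 0.0195, 0.0137 and 0.0145 in the SKO libraries. It was 0.0155, 0.0120 and 0.0141 in the DKO libraries. The mean log2 ratio differed by -0.19 between groups (exact two-sided permutation test, p = 0.5, n = 3 per group, where the smallest p possible is 0.1). Mat1a was thus in large excess over Mat2a per kilobase in every library of both groups.

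The regulatory subunit Mat2b, which pairs with the Mat2a product, averaged 56.0 ± 2.69 CPM over SKO and 47.1 ± 1.66 CPM over DKO libraries. It was called lower (log2 -0.25 ± 0.07, edgeR adjusted p = 0.0295). That call ended under 8 of 12 alternatives, among them upper-quartile and total-count scaling, DESeq2 and leaving out any library except SKO replicate 1, with log2 values from -0.29 to -0.03. Of 7 genes for SAM synthesis partners and clearance of S-adenosylhomocysteine, Mat2b was the one called. Adenosine kinase, encoded by Adk, removes the adenosine that S-adenosylhomocysteine hydrolysis releases and was 758 ± 42.2 and 741 ± 75.7 CPM (log2 -0.03, 95% interval -0.27 to 0.20).

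Gnmt, glycine N-methyltransferase, is the enzyme by which liver disposes of excess SAM. Gnmt (ENSMUSG00000002769, chromosome 17, 46725664 to 46729168, minus strand) was counted at 1973, 2037 and 1638 CPM in SKO replicates 1, 2 and 3 and 1312, 1686 and 1573 CPM in DKO replicates 1, 2 and 3. DKO replicates 1 and 3 lay below all SKO libraries, while DKO replicate 2 lay within their range. The log2 fold change was -0.31 (95% interval -0.60 to -0.01), with an unadjusted edgeR p of 0.0429 and an adjusted p of 0.131. Gnmt was called without a filter on low counts (edgeR adjusted p = 0.0483) and was -0.09 on the log2 scale with total counts.

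Pemt and Nnmt spend SAM on a phospholipid and on a vitamin. Pemt, phosphatidylethanolamine N-methyltransferase, makes phosphatidylcholine in hepatocytes. Pemt (ENSMUSG00000000301, chromosome 11, 59970614 to 60046489, minus strand) was counted at 245, 259 and 223 CPM in SKO replicates 1, 2 and 3 and 231, 264 and 262 CPM in DKO replicates 1, 2 and 3. The groups overlapped and the log2 fold change was 0.06 (95% interval -0.15 to 0.26, edgeR adjusted p = 0.7). With total counts Pemt was called higher (log2 0.28, edgeR adjusted p = 0.0225).

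Nnmt, nicotinamide N-methyltransferase, transfers the methyl group of SAM to nicotinamide. Nnmt (ENSMUSG00000032271, chromosome 9, 48591877 to 48605153, minus strand) was counted at 162, 157 and 185 CPM in SKO replicates 1, 2 and 3 and 206, 266 and 254 CPM in DKO replicates 1, 2 and 3. The lowest DKO library, replicate 1, was above the highest SKO library. Nnmt rose from 168 ± 15 to 242 ± 31.6 CPM, 1.44-fold (log2 0.52 ± 0.11, 95% interval 0.28 to 0.77, edgeR adjusted p = 0.0098). Without DKO replicate 1 the log2 fold change was 0.63 (edgeR adjusted p = 0.00157), and the call ended without SKO replicate 2 (log2 0.47, edgeR adjusted p = 0.0576).

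Other SAM-dependent methyltransferases of small molecules were counted for comparison, from a list of 8 genes. Of these, 3 fell and none rose, with a list median of -0.13. Inmt, indolethylamine N-methyltransferase, fell from 1039.9 ± 149.6 to 354 ± 33.8 CPM (log2 fold change -1.55 ± 0.13 with adjusted p = 6.65e-05 in edgeR). Hnmt, which inactivates histamine, fell from 31.4 ± 2.73 to 17.7 ± 2.13 CPM (log2 fold change -0.83 ± 0.11 with adjusted p = 0.000946 in edgeR). Gamt, which makes creatine, fell from 206 ± 29.6 to 160.0 ± 5.94 CPM (log2 fold change -0.36 ± 0.10 with adjusted p = 0.0349 in edgeR), and this call ended under 7 of 12 alternatives, including total counts (log2 -0.14) and the fits without SKO replicate 2 or 3 or any DKO library. The calls of Inmt and Hnmt held under all 12.

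Ahcy encodes S-adenosylhomocysteine hydrolase, which clears the inhibitory product of every SAM-dependent methylation. Ahcy (ENSMUSG00000027597, chromosome 2, 155059310 to 155074497, minus strand) was counted at 249, 286 and 252 CPM in SKO replicates 1, 2 and 3 and 134, 198 and 196 CPM in DKO replicates 1, 2 and 3. All DKO libraries lay below all SKO libraries, and DKO replicate 1 lay well below the other DKO libraries, which were 1.48 and 1.47 times its level. Ahcy fell from 262 ± 20.7 to 176 ± 36.5 CPM (log2 -0.58 ± 0.15, 95% interval -0.91 to -0.24, edgeR adjusted p = 0.026), 1.49-fold lower. Without DKO replicate 1 the log2 fold change was -0.41 (edgeR adjusted p = 0.0142). The call ended without SKO replicate 1, 2 or 3, with edgeR adjusted p-values of 0.0592, 0.0945 and 0.0643, and log2 values of -0.61, -0.52 and -0.61. With total counts Ahcy was called at -0.36 on the log2 scale (edgeR adjusted p = 0.0479). The homologous Ahcyl1 and Ahcyl2, in the list of SAM partners, were not called.

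**Figure D2:**
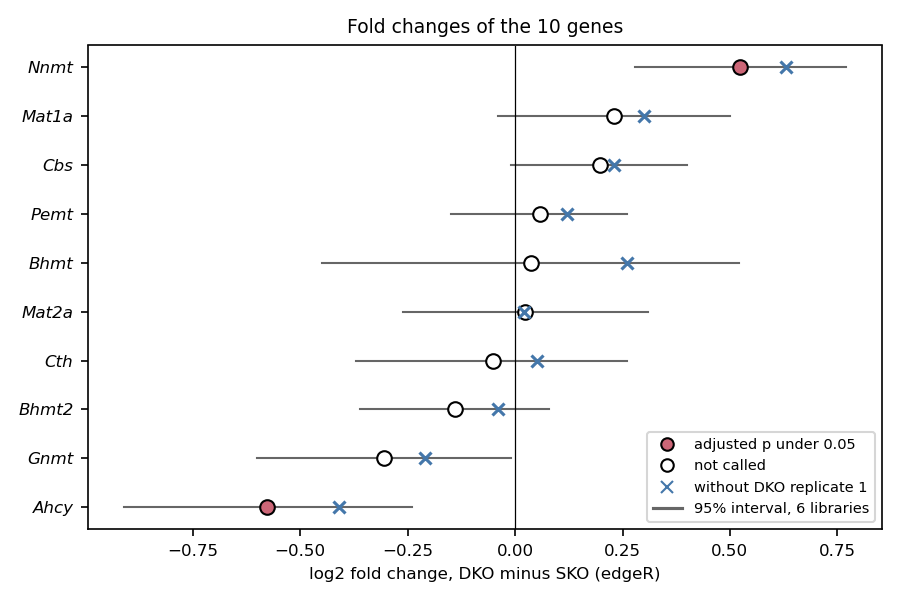
Log2 fold change of DKO over SKO (x axis) for the 10 genes (y axis), with 95% intervals from the edgeR fit of 6 libraries, filled circles for called genes and crosses for the fit without DKO replicate 1. Nnmt at 0.52 and Ahcy at -0.58 are the called genes, and Bhmt shows the widest interval and the largest shift when DKO replicate 1 is left out.

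Remethylation of homocysteine with betaine is catalysed by Bhmt, and the neighbouring Bhmt2 encodes a relative that uses S-methylmethionine. Bhmt (ENSMUSG00000074768, chromosome 13, 93616675 to 93637961, minus strand) was counted at 687, 576 and 577 CPM in SKO replicates 1, 2 and 3 and 420.2, 757 and 709 CPM in DKO replicates 1, 2 and 3. DKO replicate 1 was the lowest of the 6 libraries and DKO replicates 2 and 3 the highest. The log2 fold change of Bhmt was 0.04 (95% interval -0.45 to 0.52, edgeR adjusted p = 0.922) and 0.26 without DKO replicate 1 (edgeR adjusted p = 0.141). Its sign turned negative in the fits without replicate 2 or 3 of either group, so no direction is given for it.

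Bhmt2 (ENSMUSG00000042118, chromosome 13, 93655720 to 93674302, minus strand) was counted at 246, 265 and 265 CPM in SKO replicates 1, 2 and 3 and 202, 252 and 251 CPM in DKO replicates 1, 2 and 3. DKO replicate 1 was again the lowest library, and DKO replicates 2 and 3 lay within the SKO range. Bhmt2 was not called (log2 -0.14, 95% interval -0.36 to 0.08, edgeR adjusted p = 0.363), and its sign turned with total counts (log2 0.08). Bhmt and Bhmt2 are homologous. How reads that fit both were counted is not stated, and their effect on the counts was not tested. Bhmt shares 187 exonic bases with Gm15622 on the other strand. Gm15622 was 1.14 CPM in DKO replicate 1, 7.09 and 5.66 CPM in DKO replicates 2 and 3 and 4.01 to 10.7 CPM in SKO. The log2 ratio of Bhmt to Bhmt2 per kilobase of exon was 0.26, -0.10 and -0.10 in the SKO libraries. The DKO libraries gave -0.17, 0.36 and 0.28. Its group means differed by 0.14 (exact two-sided permutation test, p = 0.6, n = 3 per group), less than the SD within DKO, 0.28.

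The folate arm of remethylation and the genes that feed it were counted in a list of 14. Of these, 4 fell and 1 rose, with a median of -0.11. Ftcd, which breaks down histidine-derived formiminoglutamate and passes its carbon to folate, fell from 445 ± 19.3 to 217 ± 26.2 CPM (log2 fold change -1.04 ± 0.10 with adjusted p = 0.000199 in edgeR). Aldh1l1, which oxidises formyl-folate in the cytosol, fell from 1396 ± 111 to 898 ± 140.3 CPM (log2 fold change -0.64 ± 0.13 with adjusted p = 0.0091 in edgeR), and the proton-coupled folate transporter gene Slc46a1 from 50.4 ± 2.21 to 37.1 ± 3.05 CPM (log2 fold change -0.44 ± 0.08 with adjusted p = 0.00518 in edgeR). All of these calls held under the 12 alternatives. No gene of this list was called higher without SKO replicate 2 or 3. Methionine synthase itself, Mtr, was not called (log2 0.14, 95% interval -0.11 to 0.38), nor was its reductase Mtrr (log2 0.01, 95% interval -0.25 to 0.28).

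Betaine comes from choline, which Pemt helps to supply through phosphatidylcholine, and a list of 16 genes covered this supply. It held 2 genes that fell and 1 that rose, with a median of -0.11. The choline transporter gene Slc44a1 fell from 58.0 ± 6.15 to 32.3 ± 1.48 CPM (log2 fold change -0.85 ± 0.09 with adjusted p = 0.000264 in edgeR). Pcyt2, which commits ethanolamine to phosphatidylethanolamine, the substrate of Pemt, fell from 442 ± 19.7 to 307 ± 26.2 CPM (log2 fold change -0.53 ± 0.09 with adjusted p = 0.00462 in edgeR). Chka, choline kinase alpha, rose from 22.4 ± 2.87 to 38.2 ± 9.22 CPM (log2 fold change 0.78 ± 0.17 with adjusted p = 0.0182 in edgeR), a call that ended without SKO replicate 2 or 3 (edgeR adjusted p up to 0.0702). Chdh, which makes betaine aldehyde, and Dmgdh and Sardh, which take the methyl groups left after Bhmt and Gnmt act, were not called, with log2 fold changes of 0.04, -0.14 and -0.12.

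Transsulfuration runs from Cbs, cystathionine beta-synthase, to Cth, cystathionine gamma-lyase, which releases cysteine. Cbs (ENSMUSG00000024039, chromosome 17, 31608894 to 31637238, minus strand) was counted at 464, 459 and 432 CPM in SKO replicates 1, 2 and 3 and 492, 563 and 498 CPM in DKO replicates 1, 2 and 3. All DKO libraries were above all SKO libraries, by a small margin for replicates 1 and 3. The log2 fold change of Cbs was 0.20 (95% interval -0.01 to 0.40, edgeR adjusted p = 0.161), and total-count scaling alone among the alternatives called it higher (log2 0.42, edgeR adjusted p = 0.00646).

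Cth (ENSMUSG00000028179, chromosome 3, 157894248 to 157925077, minus strand) was counted at 508, 444 and 361 CPM in SKO replicates 1, 2 and 3 and 359, 444 and 464 CPM in DKO replicates 1, 2 and 3. The groups covered nearly the same range, and the log2 fold change was -0.05 (95% interval -0.37 to 0.26, edgeR adjusted p = 0.83). Its sign turned with upper-quartile or total-count scaling and without SKO replicate 1 or DKO replicate 1, so no direction is given.

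Cysteine leaves the pathway toward taurine, sulfide and glutathione, for which 13 genes were counted. Of these, 2 fell and 1 rose, with a median of -0.09. Gss, glutathione synthetase, rose from 71.7 ± 5.53 to 111 ± 14.8 CPM (log2 fold change 0.64 ± 0.10 with adjusted p = 0.00269 in edgeR), and its call held under all 12 alternatives. Sqor, which oxidises sulfide, and Mpst, which takes sulfur from the cysteine product mercaptopyruvate, fell by 0.38 and 0.31 on the log2 scale (edgeR adjusted p = 0.0102 and 0.0252). Sqor lost its call with total counts and without SKO replicate 2, and Mpst under 6 of 12 alternatives, among them total counts (log2 -0.09). Cdo1, the cysteine dioxygenase gene that opens the route to taurine, was 2157 ± 223 and 1986 ± 186 CPM and was not called (log2 -0.12, 95% interval -0.39 to 0.15).

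SAM also feeds polyamine synthesis, whose byproduct is salvaged to methionine, and this list held 11 genes, of which 3 fell and 1 rose (median 0.12). None of the 11 was called lower with total counts, without SKO replicate 2 or without replicate 3 of either group, and 4 were called higher with total counts. Smox, spermine oxidase, rose from 3.96 ± 0.690 to 11.4 ± 2.09 CPM (log2 fold change 1.53 ± 0.18 with adjusted p = 0.000504 in edgeR), under all 12 alternatives. Apip, of the salvage route, fell from 21.1 ± 0.272 to 15.9 ± 1.63 CPM (log2 fold change -0.41 ± 0.10 with adjusted p = 0.0149 in edgeR), and Odc1, ornithine decarboxylase, from 21.8 ± 2.05 to 17.1 ± 0.128 CPM (log2 fold change -0.35 ± 0.09 with adjusted p = 0.0256 in edgeR). Both lost their call with total counts, without SKO replicate 2 and without replicate 3 of either group, Odc1 also without DKO replicate 1 or 2 and with upper-quartile factors.

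Nicotinamide, the substrate of Nnmt, is shared with NAD synthesis, for which 12 of 13 genes were tested. Of these, 5 fell and none rose (2 fell with total counts and without SKO replicate 2, and 3 with upper-quartile factors and without replicate 3 of either group), with a median of -0.24. Haao and Qprt, of the route from tryptophan to NAD, fell from 596 ± 66.4 to 332 ± 50.4 CPM (log2 fold change -0.84 ± 0.13 with adjusted p = 0.00223 in edgeR) and from 229.5 ± 15.5 to 174 ± 10.3 CPM (log2 fold change -0.40 ± 0.08 with adjusted p = 0.0102 in edgeR). Nmrk1, which phosphorylates nicotinamide riboside, fell from 43.4 ± 7.25 to 27.9 ± 2.51 CPM (log2 fold change -0.64 ± 0.13 with adjusted p = 0.00829 in edgeR). Haao and Nmrk1 held under all 12 alternatives, and Qprt lost its call with total counts and without SKO replicate 2. Nampt, which recycles nicotinamide to NAD and so shares a substrate with Nnmt, was not called (log2 -0.23, 95% interval -0.54 to 0.09).

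**Figure D3:**
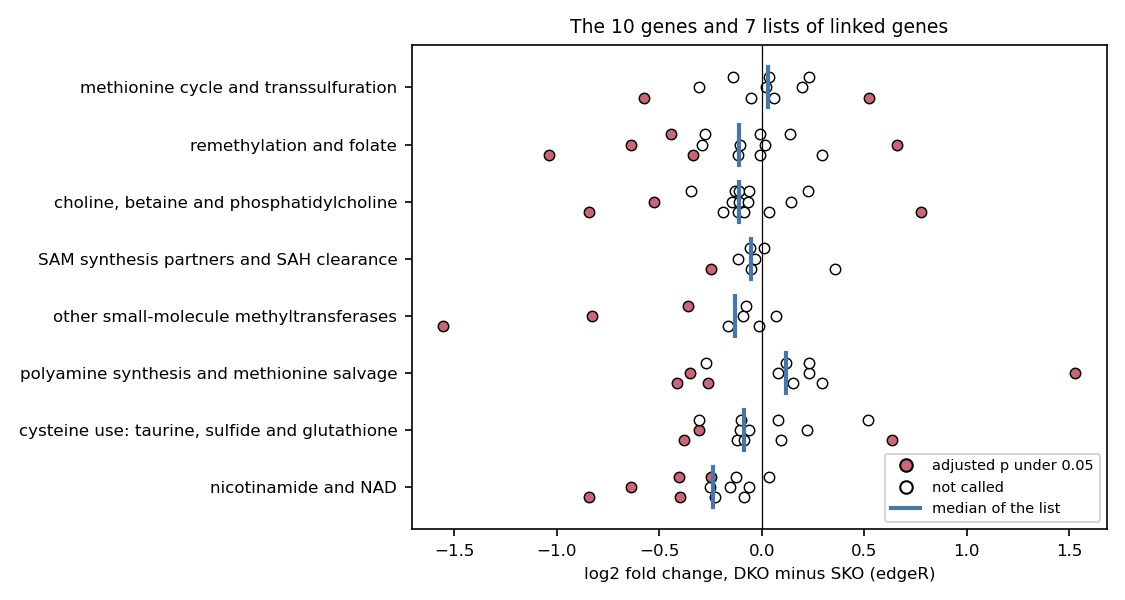
Log2 fold change of DKO over SKO (x axis) of each tested gene in the 10 genes and 7 lists of linked genes (y axis), filled where called by edgeR, with bars for the list medians. The members lie between -0.58 and 0.52, while linked genes reach -1.55 (Inmt) and 1.53 (Smox).

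Over the 7 lists 24 of 81 tested genes were called, 20 lower and 4 higher, which is 29.6% against 20.0% of all genes. The lists were chosen with earlier results of these data known, so no conclusion is drawn from the difference in shares. The count of lower calls was 9 with total counts, 13 with upper-quartile factors, 13 without DKO replicate 1 or without replicate 3 of either group, and 9 without SKO replicate 2. The count of higher calls was 16 with total counts and 2 without SKO replicate 2 or 3. The split between higher and lower calls thus moved with the scaling, as it did for all genes, whose share of higher calls went from 51.6% to 65.3% with upper-quartile factors and 87.8% with total counts.

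Levels of the 10 genes were compared per kilobase of annotated exon. In SKO Gnmt and Mat1a were far above the rest, at 1561 and 1489.5 CPM per kilobase, with overlapping libraries. Cth followed at 157, and then Pemt, Nnmt, Bhmt, Bhmt2 and Ahcy, from 115 down to 93.5, each of which overlapped its neighbours in this order. Cbs at 60.3 and Mat2a at 23.7 CPM per kilobase were lowest, without overlap. In DKO the order was Mat1a (1747), Gnmt (1263), Nnmt (153), Cth (151), Pemt, Bhmt, Bhmt2, Cbs (69.2), Ahcy (62.8) and Mat2a (24.0). There Mat1a no longer overlapped Gnmt, whereas Nnmt overlapped Cth and Cbs overlapped Ahcy. The union covers the exons of all annotated transcripts of a gene. It exceeded the longest coding transcript most for Bhmt, with 5758 bases against 2490. Per kilobase of that transcript Bhmt, Pemt and Cth followed Gnmt and Mat1a in both groups, with overlapping libraries, Bhmt at 246 and 252 CPM per kilobase, and Gnmt and Mat1a overlapped in DKO but not in SKO.

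DKO replicate 1 differed from the other DKO libraries for most members. It was the lowest DKO library for 9 of 10 members, all except Mat2a. The same share over all genes tested was not counted, so this is not given as a trait of the members. Relative to the SKO mean it stood at -0.97 on the log2 scale for Ahcy, -0.54 for Bhmt, -0.51 for Gnmt and -0.36 for Bhmt2, below every SKO library, and it was also just below the lowest SKO library for Cth. DKO replicates 2 and 3 stood at -0.41 and -0.41 for Ahcy, 0.31 and 0.22 for Bhmt, -0.15 and -0.25 for Gnmt, and -0.04 and -0.04 for Bhmt2. Summed markers of periportal hepatocytes, those around the portal vein, were 4538 CPM in DKO replicate 1, 8396 and 7995 CPM in DKO replicates 2 and 3, and 6720.1 to 7213 CPM in SKO. Pck1, the gluconeogenic gene most abundant among them, set the order: without it the sums were 2833, 3633 and 3817 CPM in DKO replicates 1, 2 and 3, all below the 4186 to 4934 CPM of SKO. Of these 10 markers 3 were called lower and 1 higher. Of 10 pericentral markers 5 were called higher and 2 lower, the latter Cyp2e1 and Cyp1a2, and their sums were 19316 to 20216 CPM in SKO and 10904 to 12430.5 CPM in DKO. Without Cyp2e1, the most abundant of them, the pericentral sums were 4624 to 5446 CPM in SKO and 5660.1 to 5805 CPM in DKO, so that gene set the direction of the sum. The part of these marker levels in the members' values was not tested.

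**Figure D4:**
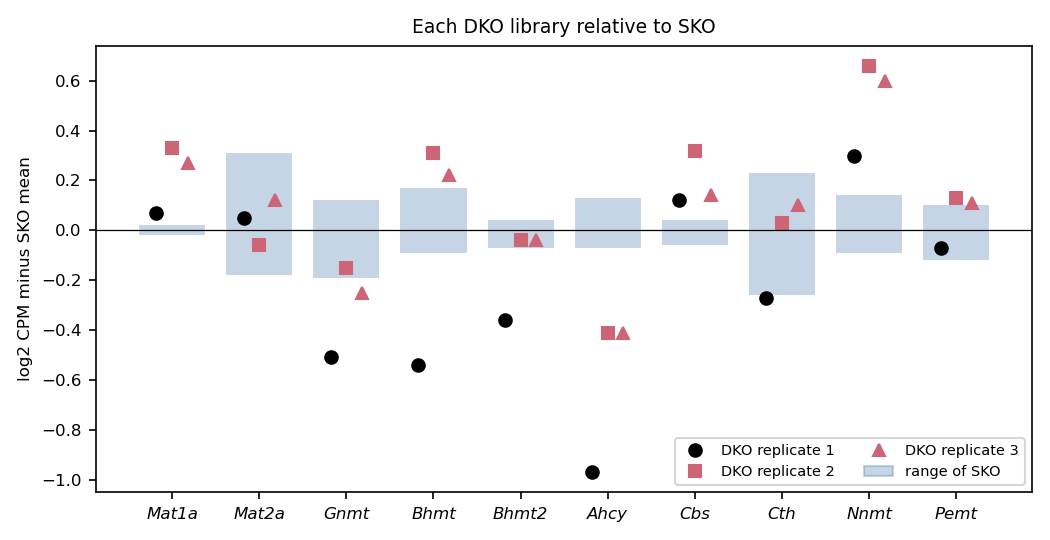
Log2 CPM of each DKO library minus the mean of the SKO libraries (y axis) for the 10 genes (x axis), with shaded boxes for the range of the 3 SKO libraries. DKO replicate 1, in black, lies below the SKO range for Ahcy, Bhmt, Gnmt and Bhmt2 and just below it for Cth, while DKO replicates 2 and 3 lie close to each other for most genes.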

How the data were processed

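The deposited files hold raw read counts of the authors, whole numbers for 54232 Ensembl genes, 1 file per library. Per the submitters' processing notes, the build was mm10 and the tools were DESeq2, HTSeq 0.6.1p1, STAR and cutadapt 1.13. Their roles, the annotation and the strand setting are not stated. Without known strand use, reads of overlapping genes on the other strand may be included. Libraries were grouped by the labelled genotype, and replicate numbers in accession order only name them. Symbols, coordinates and exon lengths came from GENCODE M21 (mm10), which matched 54079 identifiers.

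Genes of low count were removed by filterByExpr. DKO was compared with SKO by the robust quasi-likelihood test of edgeR 4.0.16, run in R 4.3.3, after TMM scaling. P-values were Benjamini-Hochberg adjusted over 13986 genes, and genes under 0.05 were called. CPM are counts over the library total times its TMM factor, and SE is the log2 fold change over the root of F. The test was checked on simulated data. Chi-square per degree of freedom between libraries of a group was 10.2 to 29.4, above the value of 1 that counting error alone would give. That excess cannot show whether the libraries are separate animals, since technical scatter would also raise it. Each library was counted as a sample.

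The members and lists were chosen with earlier results of these data known. Named are all members, Xbp1 and Nr1h4, and from each list the 3 called genes of smallest p, or up to 2 with the highest CPM where fewer than 2 were called, while Ahcyl1, Ahcyl2, Mtr, Mtrr, Chdh, Dmgdh, Sardh, Cdo1, Nampt, Csad, Naprt, Sirt1, Adi1, Cyp2e1, Cyp1a2, Pck1, Spp1, Particl and Gm15622 were named after their values were seen. Some called genes of the lists are not reported here by name. Alternatives were RLE, upper-quartile and total-count scaling, no filter, DESeq2 1.42.0, limma-voom (limma 3.58.1) and leaving out each of 6 libraries.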

Additional observations from a re-analysis of the deposited data

How the results depend on the processing

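Of 12 alternatives, the call of Nnmt held in 11 and that of Ahcy in 9, with the same direction in all, at log2 fold changes of 0.45 to 0.74 and -0.67 to -0.36. With total counts 4397 genes, 4 members higher (Mat1a, Cbs, Nnmt and Pemt), and 16 higher and 9 lower genes of the 7 lists were called, with upper-quartile factors 13 list genes were lower, and without a filter 2 members, Ahcy and Gnmt, were lower. Signs of members that were not called turned with total counts for Bhmt2 (log2 0.08) and Cth (log2 0.17) and with upper-quartile factors for Cth (log2 0.01), and those of Adk with upper-quartile factors (log2 0.03) and total counts (log2 0.19). Leaving out 1 library left 1419 to 2739 genes called (1419 without SKO replicate 2, 1784 without SKO replicate 3 and 1831 without DKO replicate 3), 0 to 1 members higher, 0 to 1 lower, and 2 to 6 higher and 9 to 17 lower list genes. It gave log2 fold changes of -0.07 to 0.19 for Mat2a, -0.12 to 0.26 for Bhmt, -0.17 to 0.07 for Cth, -0.00 to 0.12 for Pemt and -0.11 to 0.04 for Adk, where signs turned. The log2 ratios differed between groups by -0.29 to -0.03 (Mat2a to Mat1a) and 0.04 to 0.30 (Bhmt to Bhmt2) without 1 library, and the length used, also that of the longest coding transcript, an alternative chosen after seeing the data, cannot change these differences. The cause of these shifts was not tested. No paired analysis was possible because the labels give no number that ties an SKO library to a DKO library. At these depths every member had over 1000 counts per library, so the spread between libraries, not counting error, set the width of the intervals. The marker sums without their most abundant gene were also chosen after seeing the data.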

Other observations

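Csad, which makes hypotaurine on the route from cysteine to taurine, varied more between libraries than the other genes of its list. It was counted at 645, 446 and 284 CPM in SKO replicates 1, 2 and 3 and 588, 831 and 551 CPM in DKO replicates 1, 2 and 3. The groups overlapped and Csad was not called (log2 0.52, 95% interval -0.28 to 1.32, edgeR adjusted p = 0.322). In the NAD list the remaining called genes were Naprt, which uses nicotinic acid (log2 -0.25, edgeR adjusted p = 0.0319), and Sirt1, an NAD-dependent deacetylase (log2 -0.40, edgeR adjusted p = 0.026). Naprt lost its call under 6 of 12 alternatives (log2 -0.28 to -0.03) and Sirt1 under 7 (log2 -0.50 to -0.18), both with total counts, with upper-quartile factors and without SKO replicate 2. In the polyamine and salvage list the remaining called gene was Adi1, of the methionine salvage route, which averaged 223 ± 11.6 CPM over SKO and 186 ± 8.23 CPM over DKO libraries (log2 -0.26, edgeR adjusted p = 0.0416). The call of Adi1 ended under 8 of 12 alternatives, with upper-quartile or total-count scaling and without any 1 of the 6 libraries (log2 -0.30 to -0.04 over the 12).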
